A study of Mus musculus with 4 samples.

Results

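Contractile genes of smooth muscle and myofibroblasts were examined in mouse thymospheres, clusters that grow in suspension from digested thymus. The set holds 10 genes chosen by name (Acta2, Actg2, Tagln, Cnn1, Myh11, Myl9, Des, Tpm1, Tpm2 and Lmod1), out of 21154 genes that could be matched to probes of the array. They were measured by 15 of its 55681 probes, 5 of them for Tpm1, 2 for Tpm2 and 1 for each of the other genes. Of the 10 genes, 7 had a probe bright enough to be tested, among 13667 genes tested in all.

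Adult spheres were grown from the thymus of C57Bl6/N mice aged 5 to 6 weeks, and embryonic spheres from the thymus of C57Bl6/N embryos at embryonic day 14.5. All cultures held the growth factors EGF and bFGF beside insulin, hydrocortisone and B27 supplement, were given new medium on day 5 and were collected on day 7. The labels describe plating of fresh digests and mention no sort, and describe the spheres as growing from epithelial stem cells of the thymus. Of 12 thymic epithelial markers, 12 and 9 exceeded background clearly with any of their probes in the adult samples, against 11 and 11 in the embryonic samples. Of all array spots, 71.6% and 49.6% did in the adult samples, against 48.3% and 35.7% in the embryonic samples. Each sample's 25 ng of RNA was labelled with Cy3. Each group had 2 arrays, which the labels do not assign to biological or technical replication, so the p-values reflect spread between samples that may be technical only.

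Smooth muscle cells and myofibroblasts shorten by sliding actin filaments, built in these cells from the actins of Acta2 and Actg2, over myosin filaments whose heavy chain is encoded by Myh11 and whose regulatory light chain is encoded by Myl9. Tropomyosins (Tpm1, Tpm2), calponin (Cnn1), transgelin (Tagln) and leiomodin (Lmod1) lie along or build the actin filaments, and desmin (Des) forms intermediate filaments in muscle of every kind. Many of these genes are activated by serum response factor (SRF) through a DNA element called the CArG box. In the thymus, Acta2 and Des are known from vessel walls and from mesenchyme of the capsule and septa.

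The contractile genes did not move one way between adult and embryonic thymospheres. Acta2, Cnn1 and Des were higher in adult spheres, Tagln, Myl9 and Tpm1 were lower, and Tpm2 did not pass the test. Cnn1 and Des entered the test only through their adult signal. The calls of Tagln, Myl9 and Tpm1 were lost after quantile normalization, and that of Acta2 after centring on all probes. With no filter on dim probes, Acta2, Tagln, Myl9 and Tpm1 all lost their calls, and Cnn1 and Des kept theirs. The median difference of all genes was -0.79. Actg2, Myh11 and Lmod1, which mark differentiated smooth muscle, were in neither group well above background on both arrays. In RNA from whole spheres, fewer cells of a type and less RNA per cell cannot be told apart.

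To show CArG-like letters near genes that differed in opposite directions, 30 bases around each match are printed for Acta2, which was higher in adult spheres, and for Myl9 and Tpm1, which were lower. Capitals mark the match, which is exact in the sequence of Myl9 listed first and has 1 mismatch in the others. They are read 5′ to 3′ from RefSeq promoter windows, build GRCm38.p6, on the minus strand for Acta2 and Tpm1 and on the plus strand for Myl9.
Acta2 chr19:34255438-34255467: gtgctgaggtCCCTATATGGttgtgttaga
Acta2 chr19:34255388-34255417: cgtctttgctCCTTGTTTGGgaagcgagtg
Myl9 chr2:156775293-156775322: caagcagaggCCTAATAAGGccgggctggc
Myl9 chr2:156775355-156775384: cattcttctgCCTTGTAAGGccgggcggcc
Tpm1 chr9:67049415-67049444: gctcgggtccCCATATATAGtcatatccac
Tpm1 chr9:67049274-67049303: acaagcttttCCAAAAAAGTattggctgtc
Promoter windows were at hand for 7 of the 10 genes (all but Actg2, Tagln and Myh11), each the 250 bases before the 1 start that the table lists for a gene. RefSeq spans of the same build reach further upstream for some genes: the window lay wholly inside the span of Tpm1, and 212 bases of that of Acta2 and 56 of that of Myl9 did. So these windows are not all upstream of every known start. An exact CArG box stood in 1 of these 7 windows, that of Myl9, beside 1.47% of 32851 mouse promoter windows of the same length. A CArG box with exactly 1 mismatch stood in 4 of them (Acta2, Myl9, Tpm1 and Lmod1), beside 17.5% of all windows, and neither form stood in the windows of Cnn1, Des and Tpm2. CATTCC, the core of the MCAT element that TEAD factors bind, was searched on both strands and stood in 3 of the 7 windows (Acta2, Tpm1 and Lmod1), beside 12.6% of all windows. The CArG box reads alike on both strands, and a window without a match holds no information about sites elsewhere. A match describes the letters only. Acta2, higher in adult spheres, and Tpm1, lower in them, each held 2 matches with 1 mismatch. GGGCGG, the GC box, searched on both strands, stood in 5 of the 7 windows beside 32.7% of all windows, and TATAAA, the TATA box, in 0 of 7 beside 12.4%. The motifs were counted separately, overlaps included.

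Adult array 1 had 71.6% of its spots well above background and adult array 2 had 49.6%, against 48.3% and 35.7% on the embryonic arrays. The arrays shared 1 slide, on which position and group cannot be told apart. Values below are log2 processed signals from which that array's 75th percentile was subtracted, so 0 stands for a spot at that percentile, and levels of different genes are not comparable because probes differ in brightness. The difference given is adult minus embryonic, fitted with limma, and a gene was called at an adjusted p under 0.05. The median difference of all 13667 genes was -0.79 on this scale, and 53.5% of them were called, 17.5% higher and 36.1% lower in adult spheres. Of the 7 contractile genes tested, 3 were called higher and 3 lower, and their median difference was -0.18. Adult and embryonic arrays did not overlap in 6 of the 7, as in 84.1% of 13375 genes measured on all arrays. Cnn1 and Des entered the test only through their adult signal, so these counts do not support anything about the set.

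**Figure D1:**
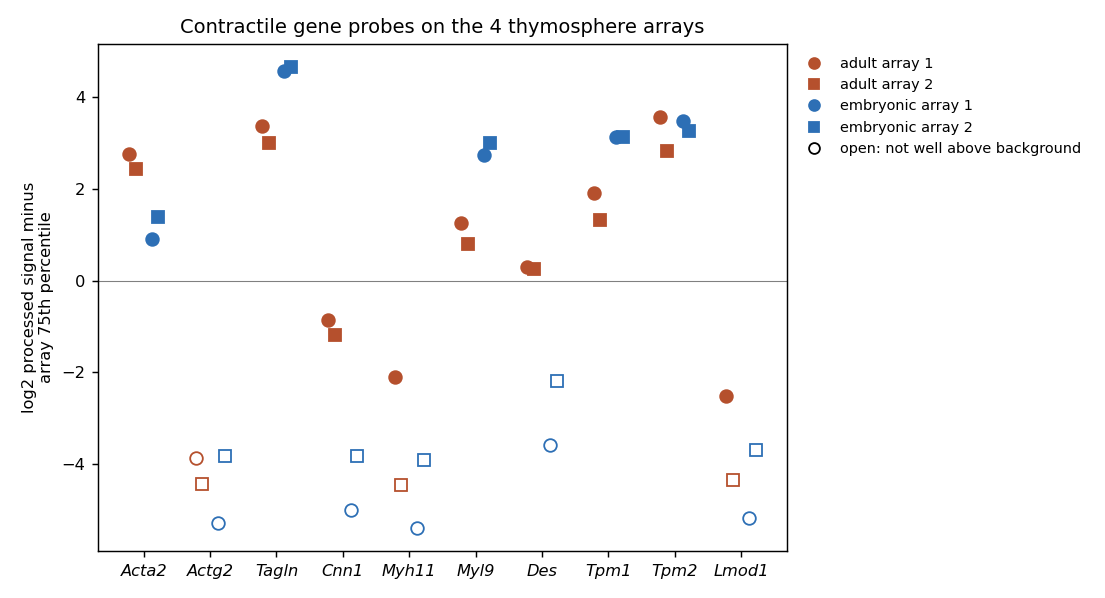
Signal of the contractile genes on each array (vertical axis, log2 processed signal relative to the 75th percentile of that array), with adult arrays left of embryonic arrays within each gene and open symbols where the probe was not well above background. Acta2, Cnn1 and Des sit higher on the adult arrays, Tagln, Myl9 and Tpm1 sit lower, the groups overlap in Tpm2, and Actg2, Myh11 and Lmod1 are open on at least 3 arrays.

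Among the actins, Acta2, which encodes alpha smooth muscle actin and is the usual marker of myofibroblasts, was higher in adult spheres. It read 2.76 and 2.43 on the adult arrays, against 0.90 and 1.39 on the embryonic arrays. The adult arrays lay close together and above both embryonic arrays. The difference was 1.45 (SE 0.35, 95% interval 0.58 to 2.32, adjusted p = 0.0212), a 2.73-fold higher signal. Actg2, the gamma actin of enteric smooth muscle, was not well above background on any array, at -3.88 and -4.44 on the adult arrays, against -5.30 and -3.82 on the embryonic arrays. It has no measured difference here. Actins are closely related, and whether the Acta2 probe also binds RNA of other actin genes was not tested.

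The Acta2 probe was printed 10 times on every array, which shows the spread between spots within an array. The SD between its spots was 0.13 and 0.10 on the adult arrays, against 0.11 and 0.06 on the embryonic arrays. The lowest adult spot read 2.24 and the highest embryonic spot 1.51, so no spot of either kind crossed over. Arrays of the same group stood 0.33 apart in adult spheres and 0.49 apart in embryonic spheres, farther than the spot SD of any array. Spots of an array share its labelling and hybridisation, so their SD does not measure the error between arrays.

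Desmin, whose gene Des was printed 10 times as well, was higher in adult spheres and close to background in embryonic spheres. Des read 0.30 and 0.24 on the adult arrays, against -3.58 and -2.19 on the embryonic arrays. On the adult arrays every spot used (8 and 10 spots) was well above background, against 0 of 9 and 2 of 10 spots on the embryonic arrays. As neither embryonic array measured it, only a nominal bound on this scale can be given, 6.60-fold more Des signal in adult spheres. The bound itself was not tested: the adjusted p of 0.0103 is that of the fitted log2 difference, 3.16, which uses the dim embryonic signals. The fitted log2 difference of Des was 1.16 with normexp background correction (adjusted p = 0.0393) and 1.54 in the deposited value table (adjusted p = 0.00509), smaller changes than this bound. For this bound the adult mean was set against a floor, the dimmest signal still well above background on each embryonic array, or the probe's signal where that was greater. The bound is nominal and not a strict minimum, as signals not well above background can exceed the floor. On embryonic array 1, a Des spot not well above background read -2.99, where the floor was -3.15.

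**Figure D2:**
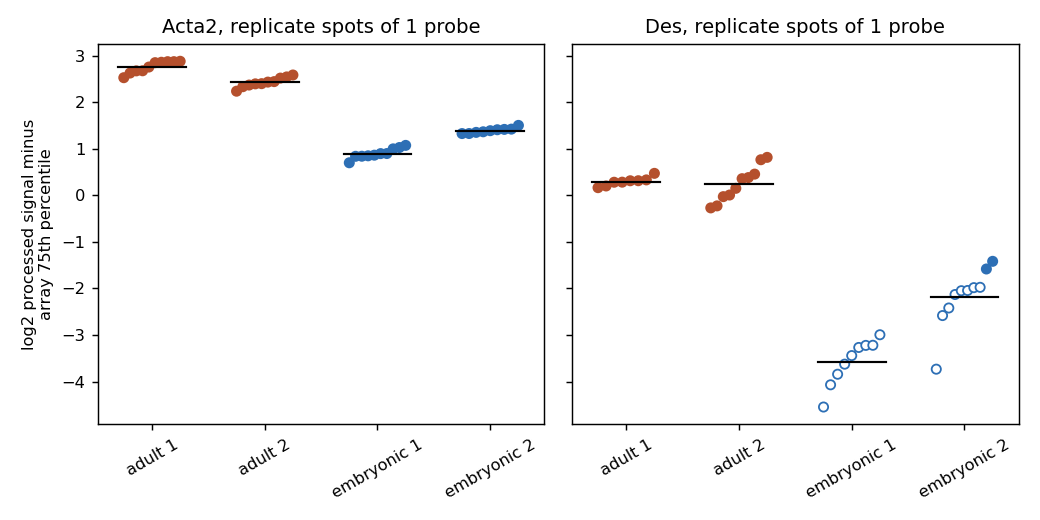
Replicate spots of the Acta2 and Des probes on each array (vertical axis, log2 processed signal relative to the 75th percentile of that array), sorted by value within an array, with adult arrays on the left. Black lines are means over spots and open symbols are spots not well above background. The Acta2 spots of adult and embryonic arrays do not meet, and the Des spots are nearly all open on the embryonic arrays, with 0 of 9 and 2 of 10 filled.

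Calponin 1 (Cnn1), an actin-binding protein that restrains myosin activity and is a marker of mature smooth muscle, had the same pattern as Des. It read -0.86 and -1.20 on the adult arrays, against -5.00 and -3.82 on the embryonic arrays, where it was not well above background. Before scaling, these were signals of 72.5 and 28.8 units in adult spheres, against 3.95 and 4.34 units in embryonic spheres. The same kind of nominal bound was 2.68-fold more Cnn1 signal in adult spheres on this scale. The adjusted p of 0.00867 is that of the fitted log2 difference, 3.38, and not of the bound. With normexp background correction its fitted log2 difference was 0.84, a smaller change than this bound, and was not called (adjusted p = 0.0583). In the deposited value table it was 1.12 (adjusted p = 0.0124), also smaller.

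Markers of striated muscle and of sensory receptors also read higher on the adult arrays, as Des and Cnn1 did. Of 19 striated muscle markers on the array, which stand for another tissue that makes desmin, 8 were tested. Of these, 7 were called higher in adult spheres (17.5% of all genes were). Among them were Neb, a giant sarcomere protein (nominal bound 9.997-fold), the calcium channel gene Cacna1s (9.47-fold) and the titin gene Ttn (3.49-fold). Another Cacna1s probe was well above background on embryonic array 1, so the Cacna1s bound holds for the tested probe only. Of the 19, 14 and 10 exceeded background clearly with any of their probes on the adult arrays, against 7 and 2 on the embryonic arrays. Of all spots, 71.6% and 49.6% did on the adult arrays, against 48.3% and 35.7% on the embryonic arrays. Of the 7, 6 were not well above background on both embryonic arrays and so were tested through their adult signal. With signal required on all 4 arrays, 1 was called higher (3.42% of all genes were). The muscle lineage regulators Myod1 and Myog and the creatine kinase gene Ckm were not well above background on any array. Probes of sensory receptor genes (olfactory, vomeronasal, taste and trace amine) exceeded background clearly for 51.4% and 23.2% of 1503 probes on the adult arrays, against 6.12% and 2.26% on the embryonic arrays. The part of these signals in the Des and Cnn1 results was not tested.

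Transgelin (Tagln, also called SM22-alpha), an actin-binding protein made early in smooth muscle and myofibroblast differentiation, was lower in adult spheres. It read 3.37 and 2.99 on the adult arrays, against 4.57 and 4.66 on the embryonic arrays. The groups did not overlap and the embryonic arrays lay 0.10 apart. The difference was -1.43 (SE 0.32, adjusted p = 0.018), a 2.69-fold lower signal in adult spheres. Relative to the median of all genes it was -0.64, and once every array was centred on its tested genes the call was lost (-0.77, adjusted p = 0.101).

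Among the myosin genes, Myl9, the regulatory light chain whose phosphorylation starts smooth muscle contraction, was lower in adult spheres. It read 1.26 and 0.80 on the adult arrays, against 2.75 and 3.005 on the embryonic arrays. The groups were farther apart than the arrays within either of them, which differed by 0.46 in adult and 0.25 in embryonic spheres. The difference was -1.85 (SE 0.34, adjusted p = 0.0123), a 3.60-fold lower signal, and the call held when arrays were centred on their tested genes (-1.19), though not after quantile normalization (-1.07, adjusted p = 0.0505). The heavy chain gene Myh11, the most specific marker of mature smooth muscle, read -2.10 and -4.45 on the adult arrays, against -5.40 and -3.92 on the embryonic arrays. It was well above background on adult array 1 only, the array with the highest share of spots above background (71.6%).

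Lmod1, which encodes leiomodin 1, a starter of actin filaments in smooth muscle, was bright on the same array as Myh11. It read -2.53 and -4.34 on the adult arrays, against -5.17 and -3.69 on the embryonic arrays, and was well above background on adult array 1 only. Neither gene was tested, and adult array 2 lay below embryonic array 2 in both. When all genes were tested whatever their brightness, the differences of Actg2, Myh11 and Lmod1 were 0.40, 1.38 and 1.00, with adjusted p of 0.667, 0.329 and 0.407.

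The tropomyosin genes, whose products cover the myosin-binding sites of actin, split by gene and by probe. The Tpm1 probe with the strongest signal (A_55_P2032192) read 1.91 and 1.32 on the adult arrays, against 3.14 and 3.14 on the embryonic arrays. The embryonic arrays read alike and lay above both adult arrays. The difference was -1.53 (SE 0.34, adjusted p = 0.0184), a 2.88-fold lower signal in adult spheres, and the call was lost after centring on the tested genes (-0.87, adjusted p = 0.0917).

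Tpm1 makes many transcripts by alternative promoters and splicing, and its 5 probes, annotated to 4 RefSeq transcripts, all read lower in adult spheres but by unequal amounts. In a fit over 27049 probes, of which 48.8% were called, 3 of the 5 were called lower, with differences of -1.53, -1.75 (A_55_P2187038) and -1.35 (A_55_P2187043). The probe A_55_P2187038 read -0.11 and 0.03 on the adult arrays, against 1.82 and 1.60 on the embryonic arrays. The probe A_55_P2078680 differed by -0.68 (adjusted p = 0.192). The remaining probe, A_55_P2187053, read 2.02 and 1.93 on the adult arrays, against 2.12 and 2.25 on the embryonic arrays, a difference of -0.21 (SE 0.35, adjusted p = 0.626). The difference between these probes was not tested, and the probe sequences were not used here, so which exons they detect is not given.

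Tpm2, a tropomyosin of smooth and slow striated muscle, did not pass the test. Its stronger probe read 3.56 and 2.83 on the adult arrays, against 3.49 and 3.27 on the embryonic arrays. The embryonic arrays lay between the adult arrays, so the groups overlapped. The difference was -0.18 (SE 0.38, 95% interval -1.12 to 0.76, adjusted p = 0.687), which leaves room for a change in either direction. Centred on all probes, Tpm2 was called lower (-1.37, adjusted p = 0.0157), and after quantile normalization it read higher without being called (0.69, adjusted p = 0.178). Its other probe differed by -0.23 (adjusted p = 0.662).

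**Figure D3:**
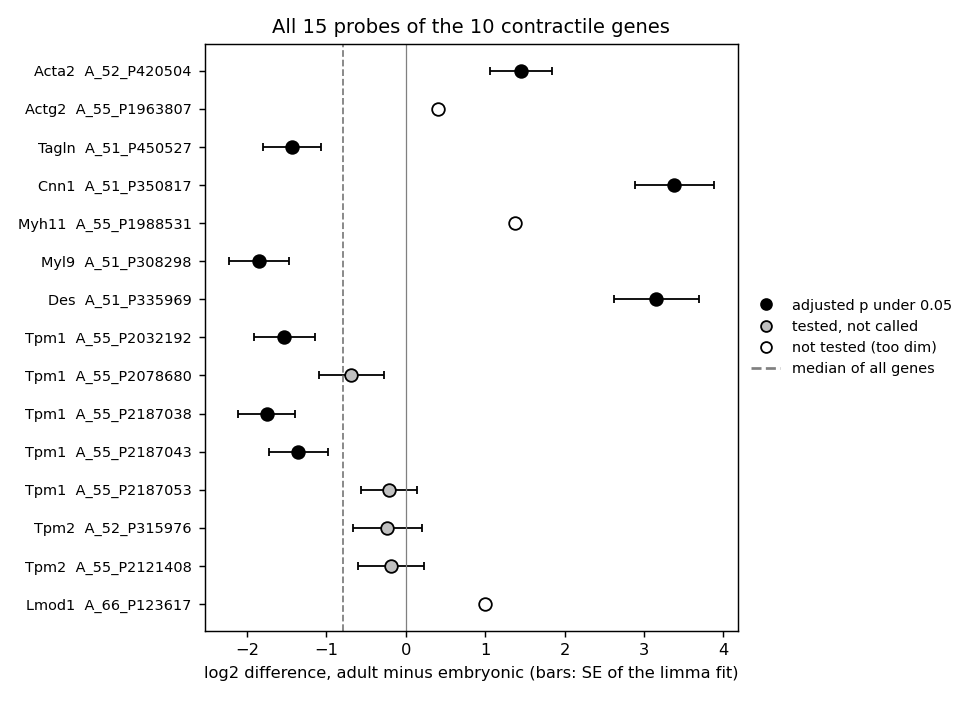
Log2 difference, adult minus embryonic (horizontal axis, bars are the SE of the limma fit over probes), for all 15 probes, with filled points for an adjusted p under 0.05, grey points for tested probes that were not called and open points for untested dim probes. The solid line is 0 and the dashed line the median of all genes at -0.79. The Tpm1 probes spread from -1.75 to -0.21.

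Differences between genes within an array do not depend on how arrays are scaled to each other, and they show relative change only. Acta2 stood -0.61 and -0.56 log2 units from Tagln on the adult arrays, against -3.67 and -3.27 on the embryonic arrays, a change of 2.88. Against Myl9 the change was 3.30, against Tpm1 2.98 and against Tpm2 1.63, and adult and embryonic arrays did not overlap in any of the 4 pairs (in 92.4% of 13374 other genes, Acta2 minus the gene did not overlap either). Such a change shows that the genes moved unequally, not which of them moved.

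Tagln and Tpm1, read from its probe A_55_P2032192, kept nearly the same distance in both groups. Tagln minus Tpm1 was 1.47 and 1.67 in adult spheres, against 1.43 and 1.52 in embryonic spheres, and the groups overlapped. Tpm1 probes differed by unequal amounts, from -1.75 to -0.21, so this holds for that probe only. Ranked among all genes, the difference of Acta2 exceeded that of 82.8% of genes, Tpm2 67.9%, Tagln 21.2%, Tpm1 17.8% and Myl9 9.43%.

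The calls depended on settings that shift all genes together and on the filter for dim probes. The direction of Acta2, Cnn1 and Des (higher in adult spheres) and of Tagln, Myl9 and Tpm1 (lower) was the same under all 16 alternatives (15 for Cnn1 and Des, which could not be fitted with signal required on every array), but Acta2 came down to 0.26 (adjusted p = 0.626) after centring on all probes. With no filter on dim probes, Acta2 (adjusted p = 0.0735), Tagln (0.0683), Myl9 (0.0508) and Tpm1 (0.0671) were not called. Cnn1 (0.0391) and Des (0.0420) were still called higher. Of all called genes 32.6% were higher in adult spheres, against 72.7% after centring on the tested genes and 14.7% with all probes centred. Leaving out either adult array ended every call (adjusted p of Acta2 0.106 and 0.101). All 4 arrays measured 9626 genes well above background, of which 59.4% were called, 3.42% higher and 56% lower in adult spheres. Of the contractile genes 5 were among them: Acta2 was called higher (adjusted p = 0.00705) and Tagln, Myl9 and Tpm1 lower.

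**Figure D4:**
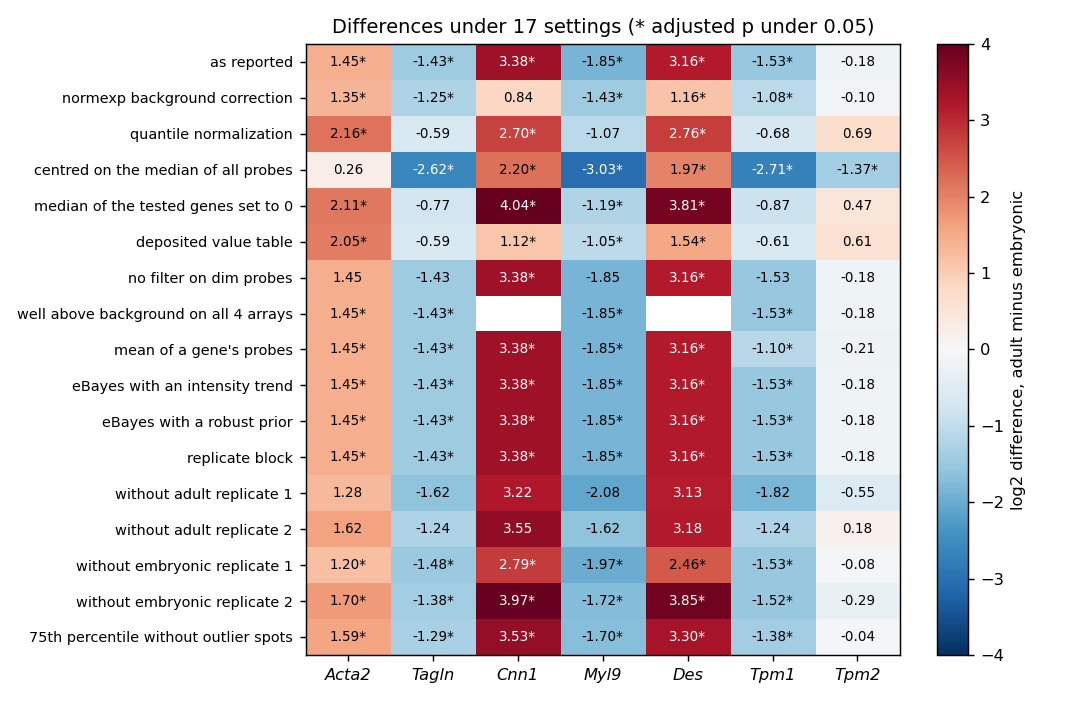
Log2 difference, adult minus embryonic, of the 7 tested contractile genes (horizontal axis) as reported and under 16 alternatives (vertical axis), as numbers and colour, with an asterisk where the adjusted p was under 0.05 and blank cells where a gene was not tested. Each gene keeps its colour except Tpm2, which has values of both signs, from -1.37 to 0.69.

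Of 20 other contractile and cytoskeletal genes of smooth muscle, 17 were tested, 11 were called lower (36.1% of all genes were) and 0 higher; their median difference was -1.43. The integrin gene Itga8, known from mesangial and smooth muscle cells, fell most (-4.88, SE 0.55, clearly above background on adult array 1 but not on adult array 2), followed by Pgm5, a protein of actin anchoring sites (-3.77, SE 0.41). The adjusted p was 0.00737 for Itga8 and 0.00734 for Pgm5. After centring on the tested genes, 4 of the 17 were called lower and 0 higher.

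Of 14 regulators of the smooth muscle programme, 9 were tested, 5 were called lower (36.1% of all genes were) and 0 higher (17.5% were). Their median difference was -1.17, beside -0.79 for all genes. Klf4, a repressor of contractile genes, fell by 2.25 (adjusted p = 0.0168), and Tead1, which binds MCAT elements, and Gata6, a factor of smooth muscle identity, fell by 1.46 and 1.42 (adjusted p = 0.0208 and 0.0203). Srf itself, named after its value was seen, differed by -1.38 (adjusted p = 0.0441). After centring on the tested genes, 0 of the 9 were called in either direction. Myocd, the muscle-specific partner of SRF, was not well above background on any array.

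Of 20 matrix and TGF-beta response genes that myofibroblasts are known to make, all were tested. Of these, 1 was called higher (17.5% of all genes were) and 3 lower (36.1% were). Their median difference was -0.52, beside -0.79 for all genes. Ccn1, a matrix-associated signalling protein, fell by 2.44, Smad7, an inhibitor of TGF-beta signalling that was above background on adult array 1 but not on adult array 2, by 1.81, and Tgfb2, a ligand of that pathway, by 1.72. After centring on the tested genes, 4 of the list were called higher and 1 lower.

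Of 12 non-muscle relatives of the contractile genes, which serve the cytoskeleton of most cells, all were tested. Of these, 2 were called lower (36.1% of all genes were) and 0 higher (17.5% were), with a median of -0.81. The 2 were Tmod3, which caps actin filaments (-1.79, adjusted p = 0.0164), and Myl12b, a non-muscle regulatory light chain (-1.29, adjusted p = 0.0209). After centring on the tested genes 0 of the 12 were called. Among 17 receptors and signalling genes of contraction, 14 were tested, 1 was called higher and 3 lower, beside 17.5% and 36.1% of all genes. Their median was -0.40. Ppp1r12b, a subunit of myosin phosphatase, which removes phosphate from the Myl9 product, had 3.90-fold more signal in adult spheres by such a nominal bound. Its fitted difference was 2.87 (adjusted p = 0.00867), but with normexp correction 0 genes of the list were called higher. Agtr1a, the angiotensin receptor, had 5.195-fold more signal in embryonic spheres by a nominal bound against the adult arrays. Its fitted difference was -4.27 (adjusted p = 0.00734). Ppp1r12b and Agtr1a were each tested only through the group where they read higher. Their fitted differences and adjusted p use the dim signals of the other group. Itpr1 and Ppp1r12a fell by 1.56 and 1.47.

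Pericytes and activated fibroblasts are other known sources of Acta2 and Tagln. Of 10 pericyte markers, 9 were tested, 2 were called lower (Cspg4 with -1.42 and Mcam with -1.24) and 0 higher, beside 36.1% and 17.5% of all genes. The tested ones had a summed scaled signal of 34.3 and 44.0 in adult spheres, against 59.8 and 82.8 in embryonic spheres. In such a sum the brightest probes weigh most, and Rgs5 had no value on adult array 2. After quantile normalization, after centring on the tested genes, with no filter and without embryonic replicate 2, 0 pericyte markers were called lower. Of 10 fibroblast markers, 2 were called higher (Pdpn with 1.73 and Thy1 with 1.41), beside 17.5% of all genes. Lower were 3 (Fbln1 with -3.24, Lum with -2.47 and Pdgfra with -2.23), beside 36.1% of all genes. Their sums were 487 and 475 in adult spheres, against 805 and 474 in embryonic spheres. Of the 8 tested endothelial markers, 5 were called higher (17.5% of all genes were) and 0 lower, but all 5 were tested through their adult signal, and with signal required on all 4 arrays 0 were called higher. Of the 11 tested thymic epithelial markers 1 was called higher and 7 lower (4 lower after centring on the tested genes), beside 17.5% and 36.1% of all genes before that centring. The part of these cell types in the contractile results was not tested.

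**Figure D5:**
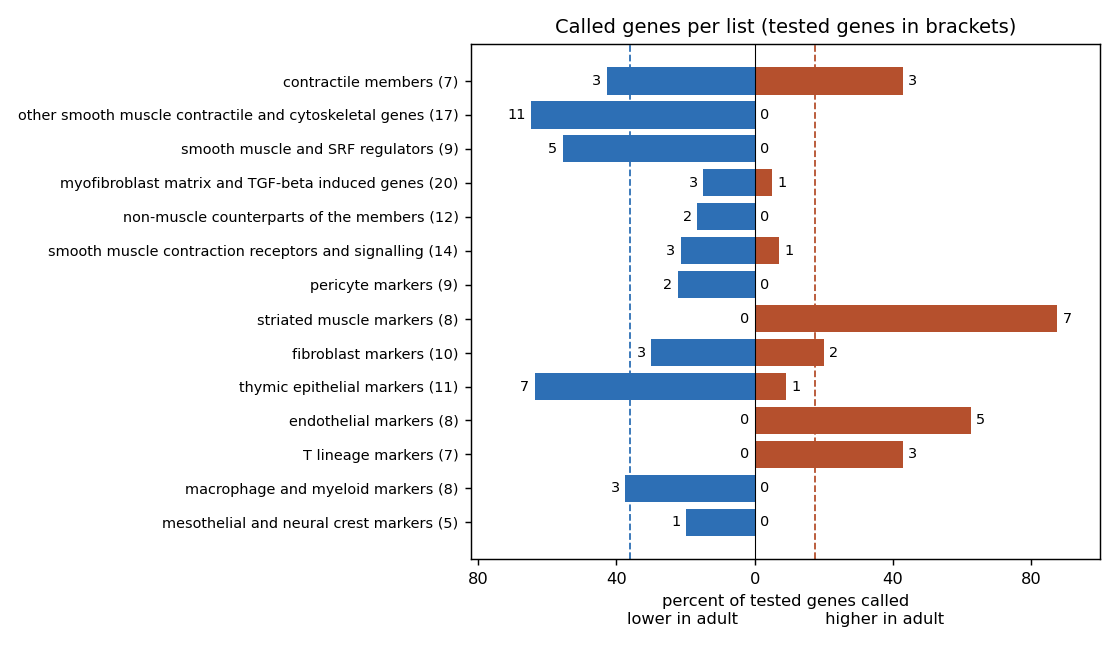
Percent of the tested genes of each list (number tested in brackets) that were called lower (bars to the left) or higher (bars to the right) in adult spheres, with the number called at each bar's end. Dashed lines mark the share of all genes, 36.1% lower and 17.5% higher. The contractile genes have 3 called each way, of which Cnn1 and Des were tested only through their adult signal.

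Across the 4 arrays, genes whose profile lay closest to that of Acta2 were Smoc2, Gfy, Fbxo32 and Ncbp3, among 9625 other genes bright enough on every array. Likeness was the root mean square distance between profiles centred on their own mean, which was 0.102 for Smoc2 and 0.126 for Ncbp3. Smoc2, a matrix-associated calcium-binding protein, read 3.85 and 3.46 on the adult arrays, against 1.83 and 2.22 on the embryonic arrays. These genes were chosen for this pattern, which rests on 4 arrays.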

How the data were processed

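RNA of 2 adult and 2 embryonic thymosphere samples was hybridised to 1-colour Agilent arrays on 1 slide. Per the file headers, the deposited intensity values come from Agilent Feature Extraction (version 10.7.3.1), after background subtraction and detrending within an array. Its other outputs used here are the flags for spots well above background, saturated or outlying, as deposited. The deposited value table holds linear intensity, and the authors' normalization of it is not given in sources used here. Control and outlier spots were left out of the probe values, and spots of a probe were averaged. The deposited signals, on a log2 scale and relative to the 75th percentile of their array, were fitted with limma 3.58.1 in R 4.3.3 (lmFit, eBayes, two-sided, Benjamini-Hochberg adjustment over all genes tested, threshold 0.05). That percentile was taken with outlier spots included. This lowered all values by 0.29 log2 units on adult array 2 and by at most 0.004 on the other arrays.

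A probe was tested if well above background (at least 0.5 of its spots) on both arrays of a group. Each gene was read from its brightest tested probe, preferring probes above background on all arrays. RefSeq accessions matched 28026 probes (50.3%) to genes. The members and gene lists were chosen with earlier results of these data known. Named genes were all members and, per other list and direction, up to 3 called genes with the greatest difference, besides the 5 closest to Acta2. Some genes that this rule names are not reported here. The scanner files carry no mean signal, so the normexp alternative (offset 50) used the median signal. The fit was tested on simulated arrays in which few genes changed, as many up as down. In these data 53.5% of genes were called, so that simulation does not show how the fit performs on them. The number of arrays limits the precision. Alternatives changed background correction, scaling, source of values, filter, probe choice, variance prior, replicate block and each array in turn.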

Additional observations from a re-analysis of the deposited data

How the results depend on the processing

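Counts below are genes called higher and lower in adult spheres (2388 and 4927 as reported), probes called (13212), contractile genes called (3 and 3) and their median difference (-0.18). Normexp correction gave 819 and 2527 genes and 4318 probes. Quantile normalization gave 2893 genes lower, 0 contractile genes lower and a median of 0.69. Centring on all probes gave 9837 genes lower, 21566 probes, 4 contractile genes lower, Tpm2 now among them (-1.37, adjusted p = 0.0157), and a median of -1.37. Setting the median of the tested genes to 0 gave 1042 genes lower, 1 contractile gene lower and a median of 0.47. The deposited table gave 6758 probes, 1 contractile gene lower and a median of 0.61. No filter gave 930 genes lower, 6947 probes, 2 contractile genes higher (Cnn1 and Des, without Acta2), 0 lower and a median of 0.70. Requiring signal on all 4 arrays gave 329 genes higher, 8066 probes, 1 contractile gene higher and a median of -1.43. Tpm2 turned positive after quantile normalization (0.69), tested-gene centring (0.47), with the deposited table (0.61) and without adult replicate 2 (0.18). Without 1 array at a time, genes called ranged from 0 to 2602 higher and 0 to 5049 lower, probes from 0 to 14111, contractile genes from 0 to 3 in each direction, and their median from -0.55 to 0.18. The 0 calls came without adult replicate 1 or 2, where limma gave 6454 and 5528 genes at an unadjusted p under 0.05 and the lone adult array was assumed to vary like the embryonic arrays. With the replicate block, 2405 genes were called higher and 4622 lower and contractile calls stayed at 3 and 3; the replicate numbers do not pair the samples by the labels (correlation of deviations 0.070). A 75th percentile without outlier spots, chosen after seeing the data, gave 2438 and 3974 genes. Of 416 counts over the gene lists and alternatives, 299 stayed within 1.5 times and 117 moved. The cause of these changes was not tested. Signal near background in embryonic spheres limits Cnn1 and Des to nominal bounds.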
